A study of Mus musculus with 35 samples.

Results

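The loci described here are transcribed regions of the mouse genome that full-length cDNA sequencing (Iso-seq) found and that the deposited map between ENSEMBL genes and Iso-seq loci does not list. Their members were taken as the loci with an Iso-seq identifier (PB. and a number) in the deposited annotation and count table that never occur in the map, which gave 202 of 13045 Iso-seq loci, in a combined annotation of 55356 genes. The study sequenced adult C57BL/6J mice to follow the expression of pseudogenes. Brain, cerebellum, heart and colon were taken from both sexes, and ovary and testis each from one sex, so that sex and tissue cannot be told apart in the gonads. This gave 10 groups of 1 tissue and sex and 29 RNA-seq libraries, which were depleted of ribosomal RNA and strand-specific, with 3 libraries per group except 2 for male heart. Iso-seq was run on 6 flow cells, with the gonads sequenced on their own and the somatic tissues of each sex pooled, and its reads were used here solely as transcript models in the annotation. The labels do not say whether the libraries of a group came from separate animals, so P-values measure the spread between these libraries. In bulk tissue, fewer cells of a type and less RNA per cell cannot be told apart.

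The libraries held 11742417 to 36194255 counts each. The 202 loci took between 0.135% and 0.385% of the counts of a library. Of 15 marker genes of tissue and sex, 13 separated the labelled libraries from all others, and the locus that counts *Gdf9*, a marker of ovary, was among those that did not. None of the 406 pairs of libraries held identical counts.

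A long cDNA read without a matching gene can stand for several kinds of transcript. It can be an independent long noncoding RNA, an RNA that starts beside a gene and runs the other way (a divergent transcript), an RNA antisense to a gene, or a stretch of a known messenger beyond its annotated end. Testis is known for widespread transcription outside of protein-coding genes, and reverse transcription with oligo(dT) is known to prime inside A-rich stretches of RNA as well as on poly(A) tails.

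Most of these loci were single, unspliced blocks. The longest transcript had 1 exon in 166 of the 202 loci (82.2%, 95% Wilson interval 76.3 to 86.8), against 1069 of 12843 other Iso-seq loci (8.32%) and 68 of the 202 of these that hold an annotated lncRNA (33.7%, 27.5 to 40.4). Another 22 loci had 2 exons, 10 had 3, 1 had 4, 2 had 5 and 1 had 6. Their lengths were close to those of the other loci, with a median of 3012 bases (quartiles 2680 and 3397, range 742 to 4967) against 3143 bases (2083 and 3936). The locus had a single transcript in 166 cases (82.2%), against 33.8% of the other loci and 79.7% of the lncRNA loci. The exon-number plot shows the loci absent from the map piled at 1 exon, where protein-coding loci are rare.

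**Figure D1:**
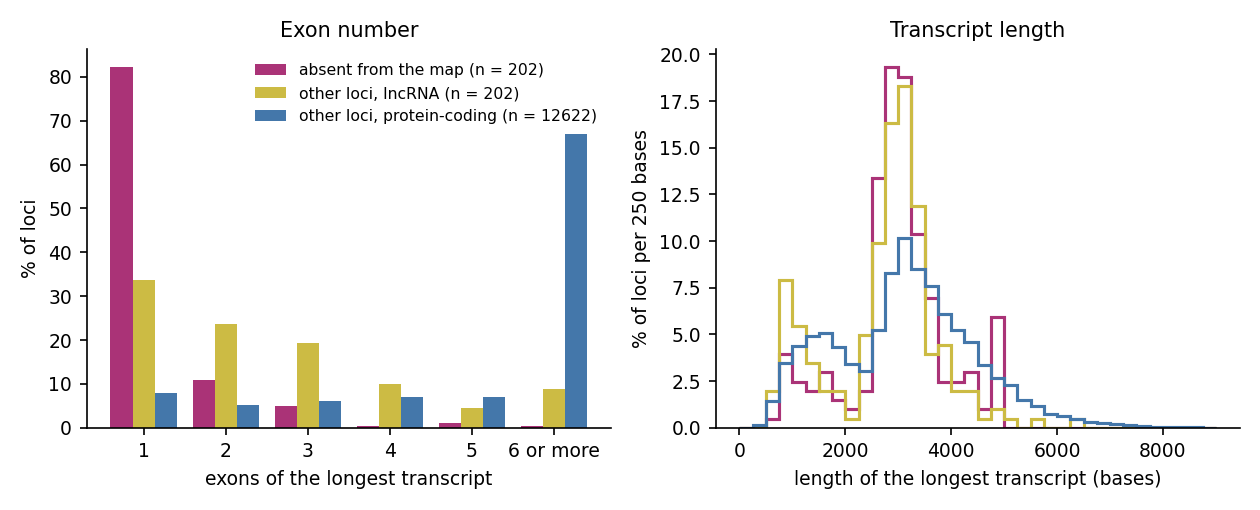
Left, percent of loci by the number of exons of the longest transcript; right, percent of loci per 250 bases of transcript length, for the 202 loci absent from the map of ENSEMBL genes, the 202 other Iso-seq loci that hold a lncRNA and the 12622 that hold a protein-coding gene. The first set had 1 exon in 82.2% of loci against 7.88% of protein-coding loci, while the length medians lay at 3012 and 3150 bases.

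The label was checked against the mouse GENCODE annotation (M21, GRCm38). Of the 202 loci, 20 did share exon bases with a GENCODE gene on their own strand, and 14 of these genes were of the class that GENCODE holds for experimental follow-up (TEC). A further 1 lay in a same-strand intron, 37 shared exon bases with a gene on the opposite strand, and 29 lay in an opposite-strand intron. Among the rest, 30 began within 1 kb of the start of a gene on the other strand and ran away from it (divergent), 36 lay within 10 kb downstream of a same-strand gene and 12 within 10 kb upstream, and 37 had none of these neighbours. For 115 loci no GENCODE gene overlapped on either strand, with the nearest gene at a median of 1720 bases (quartiles 242 and 7692). Of these 115, 45 overlapped the span of a RefSeq gene on either strand and 70 overlapped a gene of neither annotation.

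The sequences below show where such loci begin, beside genes whose starts are known. Each window runs from 250 bases before to 50 bases after a RefSeq gene start (GRCm38.p6) and is printed in the direction of the Iso-seq locus, with the first bases of that locus, up to 20 or to the end of the window, in capitals. The first 4 are starts that faced away from a gene on the other strand: PB.6299 with *Tm9sf3*, PB.8651 with *Zmym4*, PB.353 with *Asb1* and PB.4352 with *Tbc1d22a*. PB.4352 falls outside the naming rule and was picked for its position after values were seen.
PB.6299, chr19:41263955-41264254, plus strand: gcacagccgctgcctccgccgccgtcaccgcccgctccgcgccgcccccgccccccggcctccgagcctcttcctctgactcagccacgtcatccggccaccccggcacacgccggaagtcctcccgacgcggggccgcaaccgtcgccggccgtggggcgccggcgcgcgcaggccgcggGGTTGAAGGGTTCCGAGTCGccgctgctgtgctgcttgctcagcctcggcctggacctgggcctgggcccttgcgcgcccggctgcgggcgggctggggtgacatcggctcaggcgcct
PB.8651, chr4:126968178-126968477, plus strand: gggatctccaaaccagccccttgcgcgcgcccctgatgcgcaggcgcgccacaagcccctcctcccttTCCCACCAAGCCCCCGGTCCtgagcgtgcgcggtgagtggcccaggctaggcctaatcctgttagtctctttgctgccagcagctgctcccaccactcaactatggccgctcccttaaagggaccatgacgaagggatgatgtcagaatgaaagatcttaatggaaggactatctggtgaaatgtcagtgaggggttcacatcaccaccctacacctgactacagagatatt
PB.353, chr1:91540830-91541129, minus strand: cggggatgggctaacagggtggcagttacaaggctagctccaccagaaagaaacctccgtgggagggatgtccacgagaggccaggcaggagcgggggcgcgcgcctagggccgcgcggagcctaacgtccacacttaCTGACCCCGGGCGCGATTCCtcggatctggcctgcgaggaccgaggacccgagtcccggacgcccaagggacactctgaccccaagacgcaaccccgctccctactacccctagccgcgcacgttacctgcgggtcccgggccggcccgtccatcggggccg
PB.4352, chr15:86214209-86214508, minus strand: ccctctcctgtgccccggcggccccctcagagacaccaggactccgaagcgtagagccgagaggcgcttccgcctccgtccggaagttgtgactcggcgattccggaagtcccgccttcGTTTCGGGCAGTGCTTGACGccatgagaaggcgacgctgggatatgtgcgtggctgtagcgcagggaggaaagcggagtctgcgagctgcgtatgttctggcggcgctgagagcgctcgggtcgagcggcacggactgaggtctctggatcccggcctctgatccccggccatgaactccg

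The next 3 windows belong to spliced loci that began beside the start of a same-strand RefSeq gene and that were each high in 1 tissue: PB.10983 with *Gm33898* in testis, PB.10468 with *Gm52922* in colon and PB.11099 with *Gm30440* in ovary.
PB.10983, chr7:52887345-52887644, plus strand: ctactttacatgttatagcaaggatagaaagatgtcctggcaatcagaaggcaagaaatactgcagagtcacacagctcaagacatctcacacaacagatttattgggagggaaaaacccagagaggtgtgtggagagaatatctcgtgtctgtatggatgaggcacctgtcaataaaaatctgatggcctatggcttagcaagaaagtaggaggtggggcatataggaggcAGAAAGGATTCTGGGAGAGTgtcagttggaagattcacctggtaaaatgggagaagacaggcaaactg
PB.10468, chr6:135346464-135346763, minus strand: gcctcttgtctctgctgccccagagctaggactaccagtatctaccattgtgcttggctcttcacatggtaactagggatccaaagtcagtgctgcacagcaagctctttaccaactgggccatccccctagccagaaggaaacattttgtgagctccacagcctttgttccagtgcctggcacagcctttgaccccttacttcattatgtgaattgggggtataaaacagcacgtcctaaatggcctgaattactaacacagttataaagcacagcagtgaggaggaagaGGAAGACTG
PB.11099, chr7:83969987-83970286, plus strand: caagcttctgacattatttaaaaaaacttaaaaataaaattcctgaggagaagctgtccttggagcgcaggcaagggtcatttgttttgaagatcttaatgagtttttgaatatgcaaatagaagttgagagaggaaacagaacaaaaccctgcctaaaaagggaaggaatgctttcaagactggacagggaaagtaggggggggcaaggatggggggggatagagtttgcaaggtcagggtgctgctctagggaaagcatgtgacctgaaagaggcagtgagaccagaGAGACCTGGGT

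The 4 windows that face away from a gene differ in base composition from the last 3. The dinucleotide CG occurs 43, 12, 31 and 33 times in the windows of PB.6299, PB.8651, PB.353 and PB.4352, and 1 time in each of the windows of PB.10983, PB.10468 and PB.11099. In all, 28 windows of a RefSeq gene held the start of one of the loci on the opposite strand, and each of these starts lay upstream of the gene, at a median of 104 bases (12 to 248). These windows had a median of 28 CG (quartiles 18 and 33) against 7 (3 and 20) over all 32851 RefSeq windows, and 24 of them (85.7%) held 10 or more against 43.5% of all windows. Searched on both strands, TATAAA occurred in 1 of the 28 (3.57%) against 13.6% of all windows, and CCAAT in 8 (28.6%) against 37.4%. The 12 windows of same-strand RefSeq genes that held the start of one of the loci had a median of 1.5 CG, with TATAAA in 2 (16.7%) and CCAAT in 3 (25%).

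One locus began exactly at a microRNA. PB.6842 (chr2:84738137-84741115, minus strand, 1 exon of 2979 bases) starts at the last base of the *Mir130a* hairpin (chr2:84741115-84741178, minus strand), shown with the shared base in capitals.
Mir130a hairpin: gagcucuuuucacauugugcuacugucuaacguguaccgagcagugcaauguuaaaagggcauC
PB.6842 was read at 4.03 ± 0.164 FPKM in brain (SD, n = 6), 4.26 ± 0.325 in cerebellum (n = 6) and 4.39 ± 0.574 in ovary (n = 3). It stood at 0.359 ± 0.192 in heart (n = 5), 0.696 ± 0.311 in colon (n = 6) and 0.266 ± 0.118 in testis (n = 3). FPKM is the count scaled to the library's total and to each kilobase of the union of the locus's exons, and unlike a raw count it can be compared between loci. PB.6842 was chosen for its position after its values were seen.

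The loci were read at low levels. The mean of the highest tissue reached 1 FPKM in 150 of 202 loci (74.3%, 67.8 to 79.8), against 98.8% of the other Iso-seq loci and 89.6% of the lncRNA loci. The median of that highest mean was 3.04 FPKM (quartiles 0.909 and 7.76), against 22.5 FPKM for the other loci and 5.28 FPKM for the lncRNA loci. Tau, an index that runs from 0 for even expression to 1 for a single tissue, had a median of 0.837 over the 150 loci, against 0.640 for the other loci and 0.864 for the lncRNA loci. It was above 0.9 in 56 of the 150 (37.3%) against 17.0% and 45.9%.

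Most loci were highest in a gonad. Of the 196 loci with a count, 68 (34.7%) were highest in ovary and 68 (34.7%) in testis, against 23.8% and 25.3% of the other Iso-seq loci and 23.3% and 41.1% of the lncRNA loci. Brain was highest for 25, cerebellum for 17, colon for 13 and heart for 5. The heart share is 2.55%, against 8.50% of the other loci and 3.96% of the lncRNA loci. These shares scale libraries by their total count. With TMM scaling, which is set by the bulk of genes, 51 loci (26.0%) were highest in ovary, 70 (35.7%) in testis and 15 (7.65%) in heart. The shares were 11.2%, 29.7% and 16.2% of the other Iso-seq loci and 18.3%, 44.1% and 7.92% of the lncRNA loci. The map of tissue profiles shows narrow bands for testis and broader ones for ovary, where many loci kept a sizeable level in heart.

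**Figure D2:**
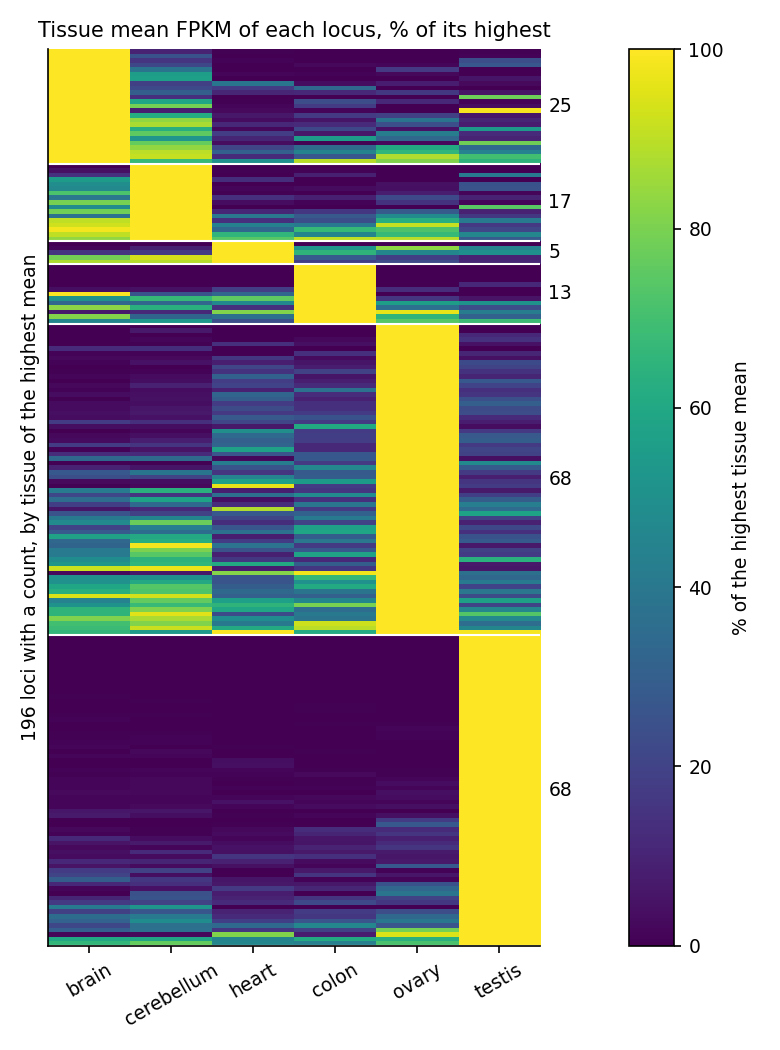
Tissue mean FPKM of each of the 196 loci with a count (rows), as a percent of the locus's highest tissue mean (colour), in 6 tissues (columns). Rows are ordered by the tissue of the highest mean and, within it, from the most to the least specific; the numbers at the right are the loci per tissue, with 68 for ovary and 68 for testis.

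To ask which loci differ between tissues, each tissue was set against the mean of the other 5 in edgeR's quasi-likelihood test over 29911 genes, of which 182 were these loci; the other 20 did not pass the filter on low counts, so the counts are over the loci that did. Testis held the most calls at an adjusted P under 0.05. In testis 105 loci were higher and 36 lower (57.7% and 19.8% of those tested), against 40.4% and 26.7% of all genes tested. In ovary 67 were higher and 27 lower (36.8% and 14.8%), against 22.4% and 19.8% of all genes. In brain 55 were higher and 53 lower, against 33.0% and 23.1% of all genes, and in cerebellum 60 were higher and 47 lower, against 30.8% and 22.0%. In heart 45 were higher and 53 lower, against 22.1% and 29.6%, and in colon 29 were higher and 57 lower (15.9% and 31.3%), against 28.2% and 31.1%. The median log2 difference of testis against the other tissues was 1.06 over the tested loci and 0.10 over all genes. In ovary it was -0.10 over the loci and -0.15 over all genes, so that the typical tested locus was not higher there although more were called higher than lower. The medians of the loci and of all genes were -0.36 and -0.10 in brain, -0.30 and -0.10 in cerebellum, -0.91 and -0.55 in heart, and -0.80 and -0.38 in colon. Scaling by total counts changed the split to 78 higher and 13 lower in ovary and to 31 and 70 in heart, and DESeq2 gave 64 and 56 in ovary. DESeq2 also turned the balance in cerebellum, to 57 higher and 66 lower, and in brain, to 52 and 65.

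**Figure D3:**
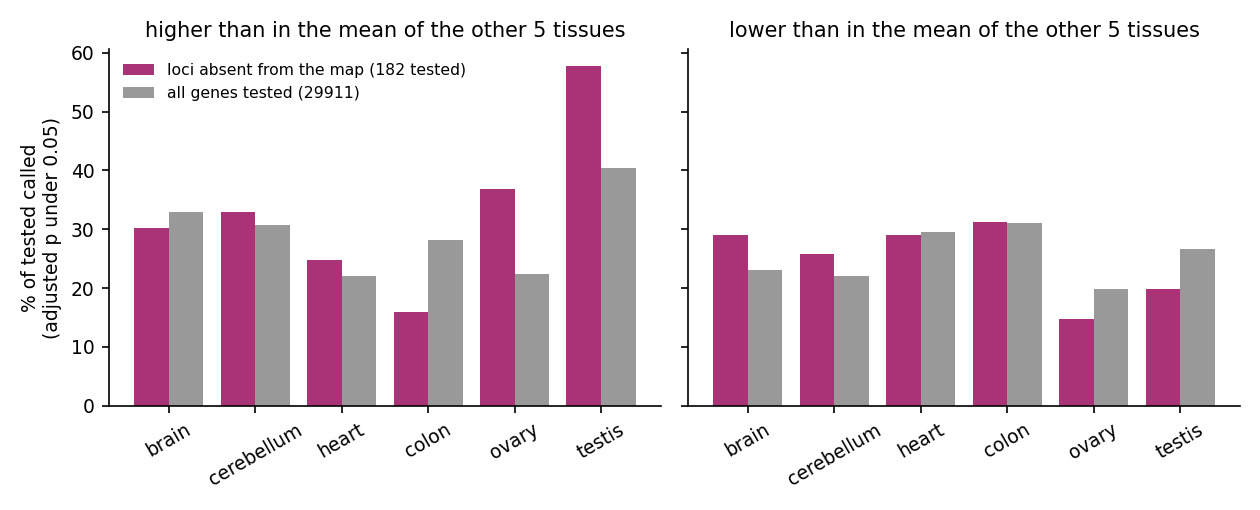
Percent of the 182 tested loci absent from the map of ENSEMBL genes and of all 29911 tested genes called higher or lower at an adjusted P under 0.05 in edgeR, for each tissue against the mean of the other 5. The loci were called higher in testis at 57.7% against 40.4% and in ovary at 36.8% against 22.4%, and higher in colon at 15.9% against 28.2%.

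Single libraries were also set side by side. All testis libraries lay above all 26 others in 62 of the 202 loci (30.7%), against 14.9% of all genes, and all ovary libraries lay above the rest in 35 (17.3%), against 4.64%. The count was 9 for brain (2.70% of all genes), 5 for cerebellum (1.47%), 4 for colon (3.55%) and 1 for heart (1.87%). These shares of all genes are over the 55356 genes of the annotation, of which 29911 passed the filter on low counts. Of the 202 loci 182 passed it. A gene without counts cannot lie above, so the shares of the loci and of all genes do not have a like base. Between the sexes no locus was called in the 4 somatic tissues, where 0.104% of all genes were (31 genes), and 11 loci had an unadjusted P under 0.05; DESeq2 called none either. No locus was called for an interaction of sex with tissue in edgeR, against 0.0167% of all genes, and 12 had an unadjusted P under 0.05.

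Testis-high loci stood out beside genes that are read in every tissue. PB.6299 (chr19:41264136-41265031, plus strand, 1 exon of 896 bases) starts 139 bases from *Tm9sf3*, which codes for a membrane protein of the secretory pathway. It was read at 77.5, 76.3 and 66.7 FPKM in the 3 testis libraries. Every other library lay at or under 2.82 FPKM, so the groups did not overlap. The difference was 5.94 on the log2 scale (SE 0.18, edgeR adjusted *P* = 2.5e-20). *Tm9sf3* itself had its highest mean in ovary, and PB.6299 stood at 397% of the *Tm9sf3* level in testis and at 3.06 to 6.86% of it in the other tissues.

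PB.353 (chr1:91537180-91540991, minus strand, 1 exon of 3812 bases) runs against *Asb1*, which codes for a SOCS box protein. It begins upstream of the RefSeq start of *Asb1* and shares 8.42% of its exon bases with the GENCODE exons of that gene. The testis libraries held 13.1, 13.0 and 12.4 FPKM. The tissue means elsewhere lay between 0.126 and 0.281 FPKM, with no overlap (log2 difference 6.32, SE 0.18, edgeR adjusted *P* = 6e-21). In testis it reached 87.7% of the level of *Asb1*, and 4.73 to 8.81% in the other tissues. *Asb1* was itself highest in testis, at 14.6 ± 0.296 FPKM (SD, n = 3).

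PB.1006 (chr10:62651693-62654208, plus strand, 1 exon of 2516 bases) starts 475 bases from *Ddx50*, an RNA helicase gene. Its testis libraries held 14.8, 17.0 and 9.39 FPKM, against tissue means of 0.0707 to 0.294 FPKM elsewhere (log2 difference 6.70, SE 0.23, edgeR adjusted *P* = 2.4e-19). Replicate 3 was the lowest of the testis libraries and still lay above every library of another tissue. PB.8651 (chr4:126968246-126969380, plus strand, 1 exon of 1135 bases) starts 111 bases from the zinc finger gene *Zmym4* and was named for its low level in colon. Colon held 0 to 0.746 FPKM with a median of 0.625, against means of 1.20 to 1.91 in brain, cerebellum, heart and ovary and of 17.2 ± 1.54 in testis (n = 3). Colon was lower than the other tissues by a log2 difference of -2.52 (SE 0.29, edgeR adjusted *P* = 3.5e-08).

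Over the 30 divergent loci, all tested, 17 were higher and 4 lower in testis (40.4% and 26.7% of all genes), and 15 were higher and 4 lower in ovary (22.4% and 19.8%). In heart 3 were higher and 15 lower (22.1% and 29.6%), and in colon 1 was higher and 17 lower (28.2% and 31.1%). In brain 8 were higher and 7 lower (33.0% and 23.1%), and in cerebellum 10 were higher and 3 lower (30.8% and 22.0%). Their tissue profiles were compared with those of their neighbours. Over the 20 with at least 1 FPKM, the Pearson r of the 6 tissue means (log2 of FPKM plus 0.1) had a median of 0.511 and was over 0.8 for 5, against a median of 0.394 for 1959 other Iso-seq loci with a divergent neighbour. These correlations rest on 6 tissues and the same libraries on both sides, and are a description.

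**Figure D4:**
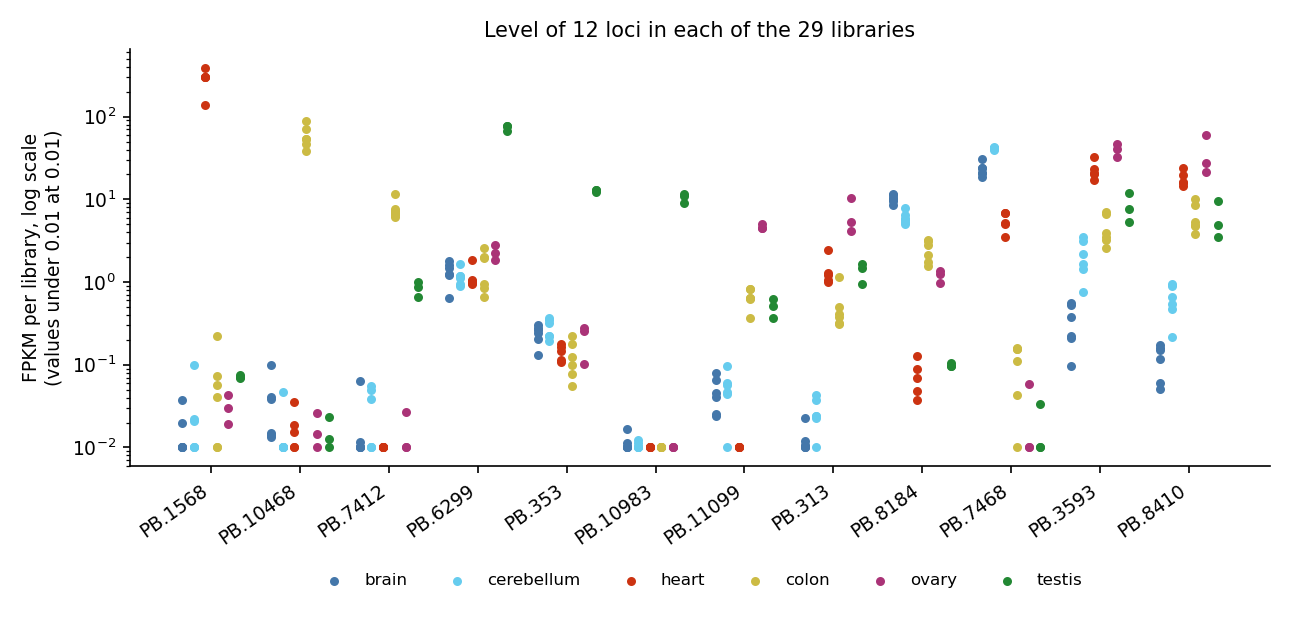
FPKM in each of the 29 libraries (points, log scale, values under 0.01 drawn at 0.01) of 12 loci, coloured by tissue. PB.1568 is high in the heart libraries, PB.10468 and PB.7412 in colon, PB.6299, PB.353 and PB.10983 in testis and PB.11099 and PB.313 in ovary, each apart from all other libraries.

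Spliced loci included some of the most tissue-bound. PB.1568 (chr11:31545798-31549650, plus strand, 2 exons, 1854 bases) lies 115531 bases from its nearest gene, *Bod1*, and falls in no RefSeq span. The 5 heart libraries held 386, 303 and 138 FPKM (female) and 304 and 303 FPKM (male), or 6119 to 17383 counts each. The 24 other libraries held 0 to 7 counts. Heart carried 99.9% of its 60266 counts, and the mean of 287 ± 90.7 FPKM was the third highest of any of the loci (log2 difference 13.97, SE 0.32, edgeR adjusted *P* = 1.8e-19, a value that depends on the prior count). Female heart replicate 3 was the lowest heart library.

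PB.10983 (chr7:52887577-52909290, plus strand) had 6 exons, the most of any of the loci, and coincides with the RefSeq gene *Gm33898*. Testis held 11.0, 11.6 and 9.02 FPKM, or 1026, 1172 and 909 counts. The other 26 libraries held 5 counts together and none over 2. The lowest testis library was 116 times the level that 3 counts would give in any other library. PB.4581 (chr16:12945952-12965250, plus strand, 5 exons) was likewise read in testis, at 1.72, 1.59 and 1.75 FPKM, with 4 counts in all other libraries together. It shares 24.8% of its exon bases with *Gm6332* on the opposite strand. PB.3836 (chr14:69732787-69745869, plus strand, 5 exons) lies wholly within the exons of *4930480K23Rik* on its own strand, a gene that the deposited annotation does not count apart, and was read at 0.549 to 1.21 FPKM on average in every tissue.

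Among the 37 loci with no neighbour in the classes above, 31 were tested, and 25 were higher and 1 lower in testis (40.4% and 26.7% of all genes). In ovary 11 were higher and 1 lower (22.4% and 19.8%), and in heart 11 were higher and 1 lower (22.1% and 29.6%). In brain 4 were higher and 12 lower (33.0% and 23.1%), in cerebellum 2 were higher and 10 lower (30.8% and 22.0%), and in colon 4 were higher and 3 lower (28.2% and 31.1%). Their nearest gene lay at a median of 13460 bases. One other testis locus was picked after its values were seen. PB.963 (chr10:56504504-56505287, plus strand, 1 exon of 784 bases), 6410 bases downstream of the pseudogene *Gm9118*, held 91.8, 96.4 and 72.1 FPKM in testis and 6 counts in the other 26 libraries together. *Gm9118* stood at 0.0897 ± 0.0779 FPKM in testis (n = 3).

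The rule named 3 loci that were higher in colon. PB.10468 (chr6:135335253-135346472, minus strand, 3 exons, 2749 bases) held 37.95 to 88.3 FPKM in the 6 colon libraries, with a median of 54.3. No other library exceeded 0.0991 FPKM, or 7 counts, and colon carried 99.8% of the 15241 counts (log2 difference 11.77, SE 0.23, edgeR adjusted *P* = 1.6e-22). It shares 40.3% of its exon bases with *Gm36640* on the opposite strand, which had 15.2 ± 4.54 FPKM in colon (n = 6). PB.7412 (chr2:174474801-174478085, minus strand, 2 exons) held 6.13 to 11.6 FPKM in colon with a median of 7.06, against 0.667 to 0.995 in testis and at most 0.0642 elsewhere (log2 difference 8.53, SE 0.34, edgeR adjusted *P* = 5.5e-15).

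Ovary-high loci were led by PB.11099 (chr7:83970276-84017324, plus strand, 3 exons, 4800 bases), which lies in an intron of *Cemip*, a gene of hyaluronan breakdown, on the opposite strand. Ovary held 4.48, 5.02 and 4.53 FPKM. The next tissue was colon, at 0.366 to 0.831 FPKM, so ovary did not overlap any other tissue (log2 difference 5.83, SE 0.25, edgeR adjusted *P* = 1.2e-14). Heart had no count in any of its 5 libraries and was called lower (edgeR adjusted *P* = 6.2e-10). PB.313 (chr1:87075478-87078904, minus strand, 1 exon), 7790 bases downstream of *Alppl2*, an alkaline phosphatase gene, held 10.5, 5.26 and 4.19 FPKM in ovary against means of 1.40 in heart and 1.36 in testis and 0.509 in colon (log2 difference 4.67, SE 0.27, edgeR adjusted *P* = 2.9e-13). PB.5684, which runs divergently from a processed transcript, held 35.6, 19.6 and 22.3 FPKM in ovary and 6.01 to 14.2 in heart (log2 difference 3.50, SE 0.20, edgeR adjusted *P* = 2.3e-13). In both, replicate 1 was the highest ovary library.

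The loci named for a low level in brain had single-exon transcripts and higher levels in ovary. PB.3593 (chr14:32115643-32120461, plus strand), 12441 bases downstream of *Oxnad1*, held 0.0969 to 0.564 FPKM in brain with a median of 0.298. Ovary held 46.2, 32.7 and 40.5 FPKM and heart 16.9 to 32.5, and all brain libraries lay under all others (log2 difference -4.93, SE 0.28, edgeR adjusted *P* = 3.3e-14). PB.8410 (chr4:83536954-83541584, minus strand), in an opposite-strand intron of *Ccdc171*, held 0.0504 to 0.174 FPKM in brain with a median of 0.134 and 59.6, 27.5 and 21.5 in ovary (log2 difference of brain -5.87, SE 0.34, edgeR adjusted *P* = 3.5e-14).

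PB.3034 (chr13:14020580-14024981, plus strand, 4 transcripts), in an opposite-strand intron of the tubulin-folding gene *Tbce*, held 0.195 to 0.483 FPKM in brain, 77.8, 37.9 and 25.9 in ovary and 33.9 to 67.0 in heart (log2 difference of brain -5.23, SE 0.32, edgeR adjusted *P* = 1.2e-13). Brain lay under every other tissue in all 3 of these loci. With limits set after the values were seen (brain and cerebellum under 25% of the highest mean, ovary and heart at 25% or more), 21 of 150 loci (14.0%) had this profile. Of the other Iso-seq loci, 600 of 12687 (4.73%) had it. The limits were drawn from the loci described here, so these counts are a description. Of the 21 loci with this profile, 19 had a single exon, 14 had several transcripts and 9 were longer than 4000 bases. Ovary replicate 1 was the highest ovary library in 20 of the 21, with a median of 8.45 FPKM against 5.42 and 5.51 in the others.

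Of the 25 loci longer than 4000 bases, 15 were highest in ovary under total-count scaling and 17 had several transcripts. Over all the loci with a count, 68 of 196 (34.7%) were highest in ovary under that scaling and 51 (26.0%) under TMM. A single transcript was held by 82.2% of all the loci. The longest was PB.4307 (chr15:82362916-82367882, plus strand, 1 exon of 4967 bases, 4 transcripts), 2645 bases from *Cyp2d22*, at 6.63 ± 2.01 FPKM in ovary (n = 3) and 5.84 ± 2.04 in heart (n = 5). The next in length were PB.5640 (4958 bases), at 10.8 ± 7.29 FPKM in ovary (n = 3) and 4.61 ± 0.901 in heart (n = 5), and PB.3061 (chr13:21762880-21767823, minus strand, 4944 bases), at 1.75 ± 1.07 and 0.517 ± 0.156. Both stood under 0.1 FPKM on average in brain, at 0.0607 and 0.00984. The most transcripts, 5, belonged to PB.2533 (chr12:8572155-8588093, plus strand), with 16.5, 9.37 and 5.99 FPKM in the ovary libraries. PB.13431 (chrX:144273500-144278320, minus strand) was one of 6 loci with 4 transcripts, at 4.97 ± 3.07 FPKM in ovary (n = 3). The authors kept only uniquely mapped reads, and whether these loci have near-identical copies elsewhere in the genome was not tested.

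Downstream loci were compared with the gene before them. Over 29 of them with at least 1 FPKM, r with that gene had a median of 0.666 and was over 0.8 for 12 (41.4%), against a median of 0.216 and 13.7% for 3372 other Iso-seq loci that lie downstream of a gene. For the 13 that overlap the RefSeq span of that gene the median was 0.90, and for the 16 outside it 0.323. Of the 33 downstream loci tested, 15 were higher and 7 lower in brain (33.0% and 23.1% of all genes), and 17 were higher and 7 lower in cerebellum (30.8% and 22.0%). In testis 15 were higher and 12 lower (40.4% and 26.7%), and in ovary 11 were higher and 4 lower (22.4% and 19.8%). In heart 10 were higher and 9 lower (22.1% and 29.6%), and in colon 5 were higher and 14 lower (28.2% and 31.1%).

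PB.2205 (chr11:100457121-100461601, minus strand, 1 exon of 4481 bases) lies 1013 bases past *Klhl11*, a BTB-Kelch gene, and overlaps its RefSeq span. Its level was 50.2 to 56.4% of that of *Klhl11* in all 6 tissues (r 0.999). Heart held 1.26 to 3.63 FPKM, and every other library at least 3.74, so heart lay under all others (log2 difference -2.13, SE 0.14, edgeR adjusted *P* = 6.6e-13). PB.8184 (chr4:21997081-22001461, plus strand) lies 242 bases past *Faxc* and overlaps its RefSeq span. It held 8.46 to 11.7 FPKM in brain with a median of 10.2, above the 5.02 to 7.75 of cerebellum (log2 difference of brain 3.95, SE 0.14, edgeR adjusted *P* = 7.6e-19). It stood at 19.2 to 130% of *Faxc*, lowest in testis and highest in brain.

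PB.7468 (chr2:181141759-181146630, minus strand) lies 1023 bases past *Eef1a2*, a translation elongation factor of neurons and muscle, and overlaps its RefSeq span. PB.7468 differed from this gene in heart. It held 39.6 to 42.8 FPKM in cerebellum with a median of 42.0, 18.5 to 30.9 in brain and 3.49 to 6.90 in heart (log2 difference of cerebellum 6.79, SE 0.24, edgeR adjusted *P* = 1.2e-18). *Eef1a2* was highest in heart, at 1263 ± 373 FPKM (n = 5), and PB.7468 was 0.434% of it there and 6.57% in cerebellum. PB.5864, 3528 bases past *Ppargc1b*, which codes for a coactivator of mitochondrial genes, was 80.5 to 150% of that gene. It held 0.433, 0.276 and 0.432 FPKM in testis against at least 1.05 in every other library, and was lower there (log2 difference -3.06, SE 0.20, edgeR adjusted *P* = 4e-13).

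**Figure D5:**
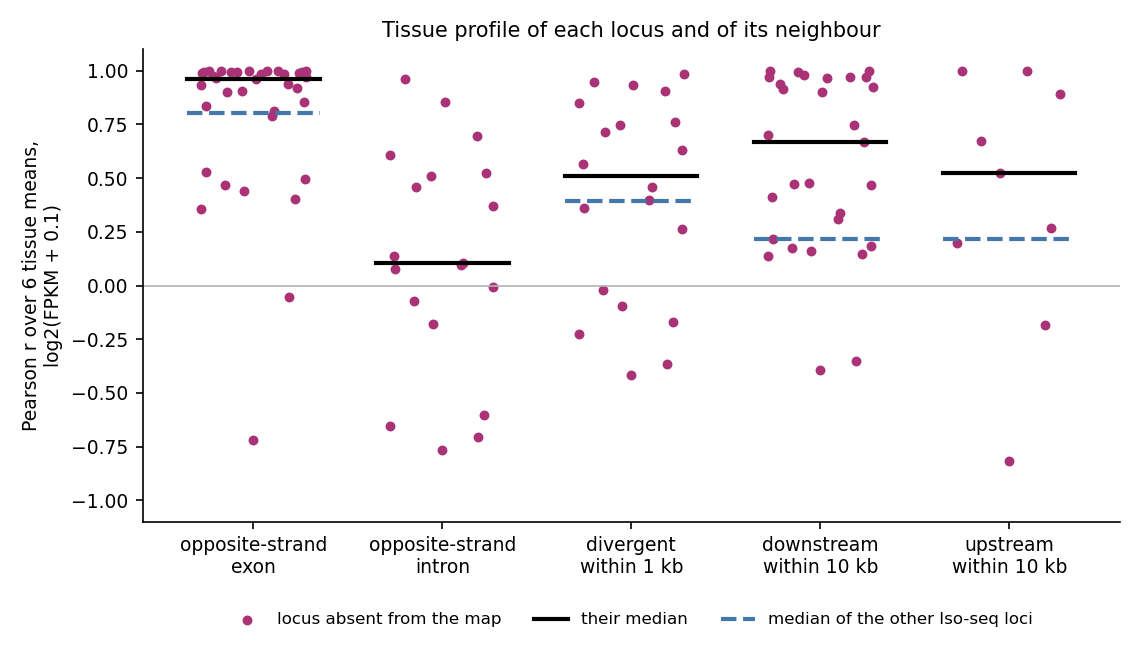
Pearson r between each locus of at least 1 FPKM and its neighbouring gene over 6 tissue means of log2(FPKM + 0.1), by position, with the median of the loci (solid line) and, for 4 of the 5 positions, of the other Iso-seq loci in the same position (dashed line). The medians were 0.960 for loci that share exon bases with an opposite-strand gene, 0.103 in opposite-strand introns, 0.511 for divergent, 0.666 for downstream and 0.523 for upstream loci.

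Most loci antisense to exons had the tissue profile of their partner. Over 35 with at least 1 FPKM, the median r was 0.960 and 26 (74.3%) were over 0.8, against 0.806 and 50.4% for 3061 other Iso-seq loci in that position. The counts themselves bear on this. Of 82 genes over 500 bases whose every exon base is shared with other genes on the same strand, none had a count, while 99 of 101 whose every exon base is shared only with opposite-strand genes had one. Over 66 of the latter outside the set described here, the summed level was a median of 116% of the opposite gene (quartiles 72.2 and 171, range 3.85 to 937), and 57 had an r over 0.8. Reads of the opposite strand therefore cannot be told apart from a locus's own in these counts. This holds for each locus named here that shares exon bases with an opposite-strand gene, and was not tested for loci in opposite-strand introns. Levels were not alike in every case. PB.3857 shares 100% of its exon bases with *Xpo7* on the opposite strand and stood at 2.18 to 10.9% of it (r 0.403). Of the 9 loci that share at least 50% in this way, 7 had an r over 0.8.

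PB.4044 (chr15:36771115-36771875, plus strand, 1 exon of 761 bases) lies wholly in an exon of *Ywhaz*, the 14-3-3 zeta adaptor, on the opposite strand. Brain held 342 to 492 FPKM with a median of 429, above the next highest library (log2 difference 2.04, SE 0.08, edgeR adjusted *P* = 2e-17). *Ywhaz* had 305 FPKM on average in brain, and PB.4044 stood at 67.9 to 146% of it by tissue (r 0.969). PB.4988 (chr17:13016738-13019700, minus strand) lies wholly in *Sod2*, the gene of the mitochondrial superoxide dismutase, at 17.1 to 48.2% of its level, and was chosen for its position.

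PB.6212 (chr19:24678261-24681532, minus strand) lies wholly in *Tmem252*, at 118 to 127% of its level. Colon held 48.6 to 71.6 FPKM with a median of 57.0, and testis 0.172, 0.158 and 0.248. Colon was above and testis below all other libraries (log2 differences 4.43, SE 0.13, edgeR adjusted *P* = 4.6e-20, and -5.07, SE 0.30, edgeR adjusted *P* = 3.9e-14). PB.12505 (chr9:45858626-45862962, minus strand) shares 74.5% of its exon bases with *Bace1*, the beta-secretase gene, on the opposite strand and 47.4% with *Gm49338* on its own. Testis held 1.61 to 2.21 FPKM, under all other libraries (log2 difference -1.77, SE 0.13, edgeR adjusted *P* = 4.4e-12).

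Some loci shared few bases with an antisense gene. PB.10541 (chr7:3418369-3422765, plus strand), with 20.9% of its exon bases on *3300002P13Rik*, held 5.37 to 7.34 FPKM in brain with a median of 6.23, 1.29 to 1.84 in cerebellum and at most 0.0956 elsewhere (log2 difference of brain 6.99, SE 0.24, edgeR adjusted *P* = 7.9e-19). PB.6882 (chr2:92058649-92062361, plus strand), with 4.07% on *2900072N19Rik*, held 6.84 to 8.12 FPKM in cerebellum with a median of 7.46 and 5.56 to 6.20 in brain (log2 difference of cerebellum 3.96, SE 0.19, edgeR adjusted *P* = 1.1e-15). In both, brain and cerebellum lay above all other tissues.

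PB.8950 (chr4:155300604-155304312, plus strand), with 6.53% on the atypical protein kinase C gene *Prkcz*, held 0.118 to 0.248 FPKM in heart, under all others (log2 difference -3.26, SE 0.25, edgeR adjusted *P* = 2.7e-11). It was 16.02 to 18.4% of *Prkcz* in 5 tissues and 138% in testis. PB.3792 (chr14:63850135-63860289, minus strand, 3 exons), which starts 75 bases from *Pinx1*, a gene of a telomerase inhibitor, on the other strand, held 2.03 to 4.16 FPKM in cerebellum with a median of 2.92 and 1.08 to 1.84 in brain (log2 difference of cerebellum 3.59, SE 0.22, edgeR adjusted *P* = 2e-13).

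The most counts of any of the loci, 239805, belonged to PB.13058 (MT:15423-16188, minus strand, 766 bases), which covers the mitochondrial control region beside the transfer RNA gene *mt-Tp*. Heart held 454 to 985 FPKM in its 5 libraries with a mean of 730 ± 207, cerebellum 682 ± 106 (n = 6) and brain 577 ± 85.6 (n = 6). Colon held 208 ± 32.4 (n = 6), ovary 135 ± 20.7 (n = 3) and testis 69.3 ± 6.54 (n = 3). Heart, cerebellum and brain overlapped one another and lay above the other 3 tissues. *mt-Tp* lies 1 base away, and both strands of the mitochondrial genome are transcribed as long RNAs.

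Some loci had no counts of their own. Of 8 loci that share at least 90% of their exon bases with a same-strand GENCODE gene that the deposited annotation also holds, 5 had no count and the highest total was 461, while 7 that share as much on the opposite strand only had 2806 to 109400 counts. PB.11449 and PB.3536 were among those without a count, and 6 loci had none in all. For these loci a count of 0 cannot be told apart from reads that the overlap left uncounted.

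The 3′ ends could be read for 14 of the 202 loci, those that end inside a GENCODE transcript of either strand with enough sequence beyond. Of these, 3 (21.4%) held AATAAA or ATTAAA in their last 50 bases, against 64.7% of 4205 other Iso-seq loci. In the 20 bases that follow the end, 8 of the 14 (57.1%) had 12 or more A, against 21.5% of the other loci, with a median of 16 A against 5. The 14 are not a sample of the whole set, since each of them shares exon bases with a GENCODE gene on one strand or the other. Whether their cDNA was primed inside the RNA was not tested.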

How the data were processed

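The deposited count table holds whole-number counts of reads per gene, which the authors left unnormalized, for 29 RNA-seq libraries (0 other columns of per-sample values). Per the submitters' processing notes the build was mm10 and the tools were HISAT2 2.0.5, featureCounts 1.6.3, FastQC 0.11.8 and MultiQC 0.9. According to the methods, Iso-seq transcripts were error-corrected with short reads, aligned by minimap2, collapsed by cDNA_Cupcake and joined to ENSEMBL genes, and uniquely mapped reads were kept. Whether counting used strand is not given in the sources used here. As given above, none of the 82 genes wholly shared on the same strand was counted, while 99 of 101 shared only on the opposite strand were. Overlap on the same strand and on the opposite strand was therefore not treated alike. The deposited annotation gave exon coordinates, and the deposited map gave the Iso-seq loci that it pairs with an ENSEMBL gene.

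FPKM values were derived here by dividing each deposited count by the total count of its library and the union length of the exons. Tissue means take the libraries of both sexes. Tests used edgeR 4.0.16 in R 4.3.3 (quasi-likelihood, TMM, filter on low counts by group) in one fit of 10 group means. Benjamini-Hochberg adjustment ran over all genes, with calls under 0.05. The script was tested on simulated data. Intervals cover counting error only. Other calculations used Python 3.11.15.

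Positions were set with GENCODE M21, with limits of 1 kb for divergent and 10 kb for same-strand neighbours, in the order in which the report lists them. RefSeq (GRCm38.p6) supplied gene starts, spans and sequences. The named loci were the 3 highest, up to 3 per tissue and direction by adjusted P among those whose libraries did not overlap, the 3 with the most exons, the longest transcript, the most transcripts and the most same-strand overlap, and the one with the most counts, and exceptions are marked. Some items are not reported here. Members and lists were chosen with earlier results of these data known. Alternatives were total-count scaling, DESeq2 1.42.0 and its size factors, no filter, the somatic tissues alone, a replicate block, each library left out, and other thresholds, lengths and overlap rules.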

Additional observations from a re-analysis of the deposited data

How the results depend on the processing

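Counts of called loci stayed within 1.5 times the reported count under each alternative run except in colon and ovary. Colon-high loci were 45, not 29, against the other 3 somatic tissues, and ovary-low loci were 56 with DESeq2 and 13 with total-count scaling, not 27; the cause was not tested. Total-count scaling shifted the log2 differences of all genes by 0.51 in ovary and -0.54 in heart. The shift was taken as the mean log2 TMM factor of the tissue minus the mean of the other 5 tissues. The number of loci highest in heart was 15 with TMM-scaled library sizes, not 5, and 5 to 8 when each library was left out in turn, with 8 without ovary replicate 1. Loci that share exon bases with a GENCODE gene were 20 on the same strand, 46 on the opposite strand, 58 on either strand, and 10 on the same strand where at least 50% of the exon bases had to be shared. The median distance to the nearest gene was 130.5 bases with overlaps at 0, and 1203 bases to protein-coding genes only. All 26 named log2 differences that were recomputed kept their direction and call under their 832 alternatives. Over the loci highest in ovary, the count ran from 61 to 69 with libraries left out, and ovary-high calls from 59 (without ovary replicate 1) to 69.

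Replicate numbers were not found to pair the libraries. In 56 pairs of same-numbered libraries the correlation of deviations ran from -0.259 to 0.0931, with 0 pairs over 0.1, and 9 of 29 libraries correlated best with their own number. With the number as a replicate block, 102 loci were higher in testis in place of 105, and 58 in ovary in place of 67. The windows at 3′ ends could be read for 14 loci, and the intron-end check was not run, since the sequences used here, windows at gene starts and transcripts, did not cover introns. Depth limits most the loci under 1 FPKM, whose values rest on few counts.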
